A study of Mus musculus with 5 samples.

Results

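The genes described here are the solute carriers of 8 families that move neurotransmitters, amino acids, sugars and monocarboxylates across membranes, and their levels were compared between medial and lateral cortex of mouse embryos. Members were taken by symbol alone, as every gene of the Slc1, Slc2, Slc6, Slc7, Slc16, Slc17, Slc32 and Slc38 families named with a family number, the letter a and a member number, with no measured value used. That gave 86 of the 34590 gene symbols in the count files. Symbols with further letters, such as Slc6a20a, Slc6a20b, Slc7a6os and Slc2a4rg-ps, were left out by the same rule.

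All libraries came from dissected, untreated cortex of wild-type embryos on a mixed strain background at E14.5, in the middle of cortical neurogenesis. The medial cortex gave 3 libraries and the lateral cortex gave 2. The RNA was polyadenylated and the strand was not kept, so reads of genes that overlap on opposite strands cannot be told apart. The labels do not state whether libraries of a region derive from different embryos. The p-values therefore reflect library-to-library spread, which may be partly technical.

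Gene reads numbered 27406370 to 36460274 in the medial libraries and 56147129 to 66981952 in the lateral ones, and depth thus went with region. Levels are CPM, reads scaled by library size with TMM factors, and they are compared between libraries for the same gene, never between genes, because gene length was not used. The cortex markers Emx1, Emx2, Pax6, Tbr1 and Neurod6 had at least 34.9 CPM in every library. Markers of the connective tissue around the brain (7 genes, among them Col1a1, Col1a2 and Dcn) summed to 295 CPM in medial library 1 and to between 13.8 and 21.4 CPM in the other 4 libraries. For several of the members described whose value in medial library 1 lay apart from the other medial ones, the fold change without it is given too.

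As background, transmitter uptake from the space around neurons and glia is carried out by sodium-coupled carriers of the Slc1 family (glutamate) and the Slc6 family (GABA, glycine, monoamines). Vesicular carriers load glutamate (Slc17a6, Slc17a7, Slc17a8) or GABA and glycine (Slc32a1) into synaptic vesicles and so mark the transmitter a neuron releases. Slc2 carriers bring in glucose, Slc16 carriers move lactate and related acids, and Slc7 and Slc38 carriers supply cationic amino acids, large neutral amino acids and glutamine. In the embryonic cortex radial glia, young neurons and vessel cells use different members of some of these families.

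Most transporter genes did not pass the test between the regions with region as its only term. The glutamate carrier gene Slc1a2, the neutral amino acid carrier gene Slc1a5 and the monocarboxylate carrier gene Slc16a1 were higher in medial cortex, and the vesicular GABA carrier gene Slc32a1 was lower. These were the 4 of 61 tested members that passed an adjusted p of 0.05 in edgeR's quasi-likelihood test over all genes, 3 higher and 1 lower. That is 6.56% of the tested members, below the 9.72% of all 16229 tested genes that passed. Over all genes 4.62% were called higher in medial cortex and 5.10% lower. DESeq2 called 6 members higher and 8 lower, or 23.0% of the members, close to the 21.7% of all genes it called. Leaving out medial library 1 gave 5 members higher and 3 lower in edgeR (13.3%, against 13.2% of all genes), and leaving out medial library 3 gave 1 and 1 (3.33%, against 3.01%). Without medial library 2, lateral library 1 or lateral library 2, 0 members were called, and 0, 18 and 0 of all genes. At an unadjusted p under 0.05 these 3 fits had 14, 14 and 11 members (23.0%, 23.0% and 18.0%, against 24.5%, 24.4% and 14.8% of all genes). With all libraries 21 members, or 34.4%, had an unadjusted p under 0.05, against 32.2% of all genes, and the counts by family given below are to be read against that share. The other 25 members had between 1 and 26 reads summed over the 5 libraries and fell under the low-count filter.

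The median log2 fold change, medial over lateral, was −0.08 over the 61 tested members and 0.01 over all tested genes. In absolute size the median was 0.35 in the members and 0.26 in all genes. The groups did not overlap in 30 members, 13 with all medial libraries above and 17 with all below, or 49.2% against 53.3% of all genes (26.5% above and 26.7% below). A difference of at least 2-fold either way was seen in 10 of the 61 members and in 1598 of all 16229 tested genes (9.85%). Of the 10 members Slc1a2 and Slc32a1 passed. Those that did not pass included Slc1a4, Slc2a12, Slc6a4, Slc6a17, Slc16a4, Slc17a7 and Slc17a8. Few reads were seen for Slc6a4, Slc16a4 and Slc17a8 (44, 85 and 78 in all). Slc2a12 had 4.96 CPM in medial library 1 and at most 1.03 CPM elsewhere.

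**Figure D1:**
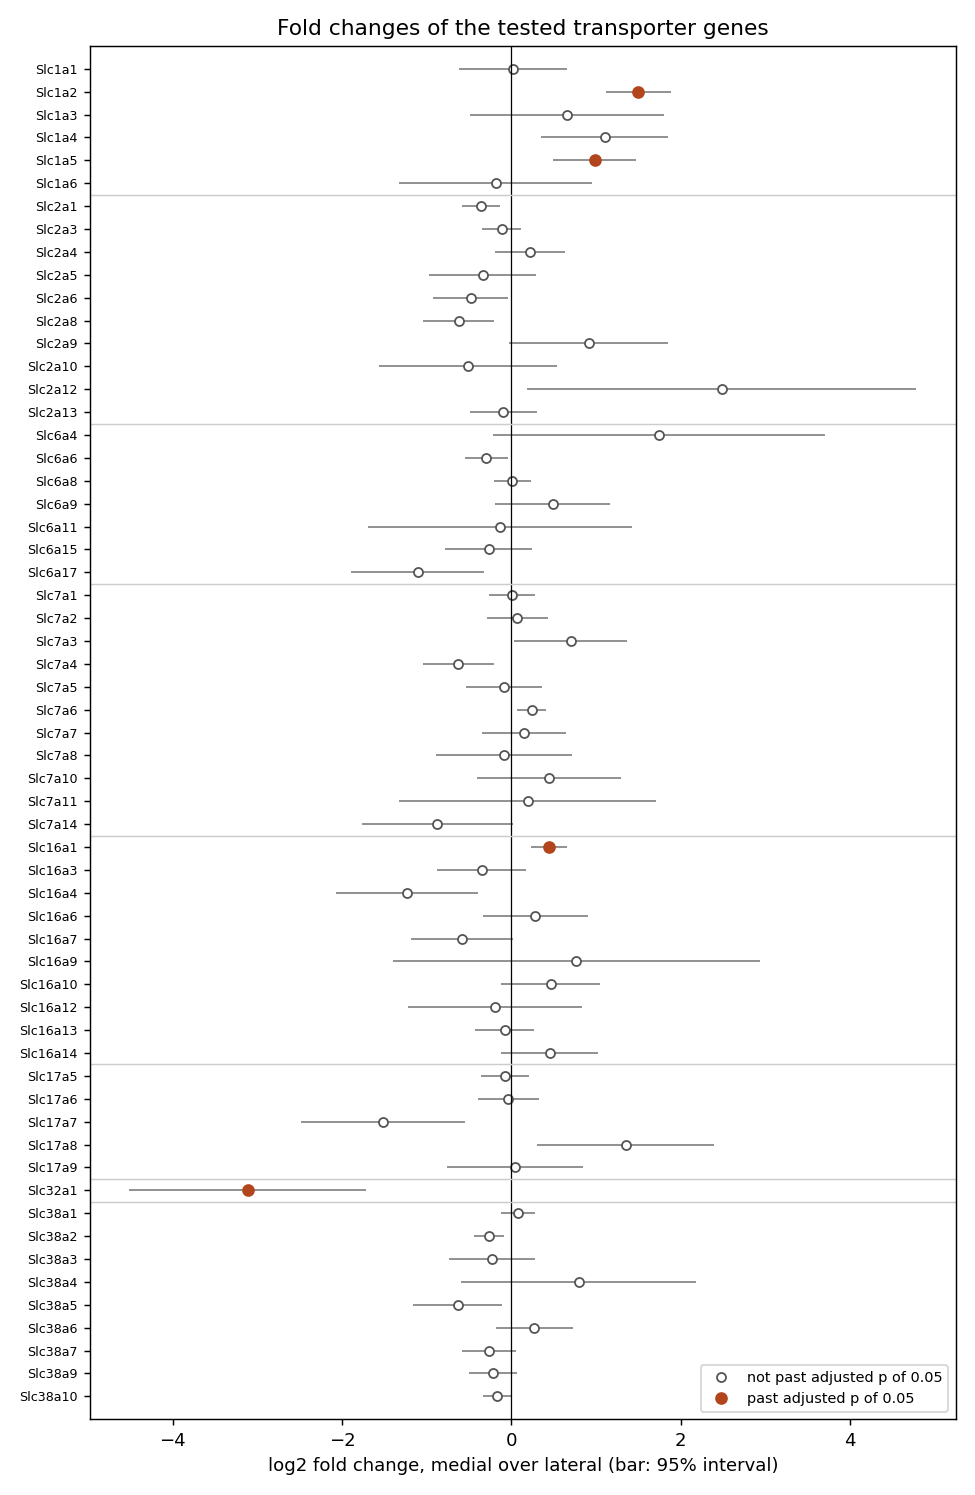
Log2 fold change of medial over lateral cortex on the horizontal axis for 59 of the 61 tested transporter genes, ordered by family, with bars for the 95% interval from edgeR. Filled points mark the 4 genes past an adjusted p of 0.05, Slc1a2, Slc1a5 and Slc16a1 to the right of 0 and Slc32a1 to the left, and most other intervals cross 0.

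In the Slc1 family of glutamate and neutral amino acid carriers 2 of 6 tested genes were higher in medial cortex and 0 lower, with a median log2 fold change of 0.82. That median is from all libraries. Without medial library 1 the log2 fold changes of Slc1a3 and Slc1a4 fell most, to 0.02 and 0.76, while that of Slc1a1 rose to 0.25. Slc1a2 encodes GLT-1, the carrier that clears most synaptic glutamate in the adult forebrain. It had 67.4, 55.9 and 48.4 CPM in medial libraries 1 to 3 and 19.8 and 20.8 CPM in lateral libraries 1 and 2. Every medial library was above both lateral ones, and the lateral values lay close together. Its means were 57.2 CPM ± 9.57 (SD, n = 3) and 20.3 ± 0.661 (SD, n = 2), a log2 fold change of 1.49 (SE 0.16, edgeR adjusted p = 0.0253). Left-out libraries moved the log2 fold change only between 1.36 and 1.60, but the call was lost without medial library 2 (edgeR adjusted p = 0.108), lateral library 1 (0.0610) or lateral library 2 (0.197).

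Slc1a5 encodes ASCT2, an exchanger of glutamine and other neutral amino acids. It had 22.1, 20.5 and 16.7 CPM in the medial and 11.6 and 8.32 CPM in the lateral libraries, again without overlap. The log2 fold change was 0.98 (SE 0.20, edgeR adjusted p = 0.0418), and it stayed past the threshold in only 1 of the 5 fits that left out a library, the fit without medial library 1. Its relative Slc1a4, or ASCT1, which exchanges serine, alanine and other small amino acids, had 128, 79.2 and 61.8 CPM in the medial and 39.0 and 44.4 CPM in the lateral libraries. The groups did not overlap, but medial library 1 stood well above the other medial ones, and Slc1a4 did not pass (log2 fold change 1.10, SE 0.31, edgeR adjusted p = 0.0697). Without medial library 1 its log2 fold change was 0.76 (SE 0.14, edgeR adjusted p = 0.0302).

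Slc1a3 encodes GLAST, the glutamate carrier of radial glia and astrocytes. It reached 289 CPM in medial library 1, while the other 4 libraries lay between 97.9 and 120 CPM. The regions overlapped outside medial library 1, and the log2 fold change was 0.65 (SE 0.47, edgeR adjusted p = 0.383) with all libraries and 0.02 (SE 0.13) without it. The ratio of Slc1a2 to Slc1a3 was 0.233, 0.465 and 0.494 in the medial and 0.199 and 0.179 in the lateral libraries. These ratios do not overlap. Their exact two-sided permutation p, in which the smaller tail is doubled, was 0.2 (n = 3 and 2), the smallest this form of the test allows.

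The other Slc1 genes did not pass. Slc1a1, the glutamate and cysteine carrier of neurons, had 12.3 to 22.5 CPM in the medial and 18.5 to 19.0 CPM in the lateral libraries (log2 fold change 0.02, 95% interval −0.62 to 0.66). Medial library 1 was its lowest, and without it the log2 fold change was 0.25 (SE 0.10, edgeR adjusted p = 0.145). Slc1a6, the Purkinje cell carrier EAAT4, was at 0.365 to 0.891 CPM across the libraries. Slc1a7 had 22 reads in all and was not tested.

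Radial glia, which express several of these carriers, were checked with 7 markers: Sox2, Pax6, Vim, Nes, Fabp7, Hes1 and Hes5. Of these, 2 were higher in medial cortex, Nes and Hes1, and 0 were lower. Their summed level was 2835 to 3334 CPM in the medial and 1853 to 2204 CPM in the lateral libraries. Slc1a2 relative to that sum was 0.0202, 0.0187 and 0.0171 in the medial and 0.00900 and 0.0112 in the lateral libraries, without overlap (exact two-sided permutation p = 0.2, the smallest this form of the test allows, n = 3 and 2). In tissue libraries such as these, more cells of a type and more RNA per cell cannot be told apart.

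**Figure D2:**
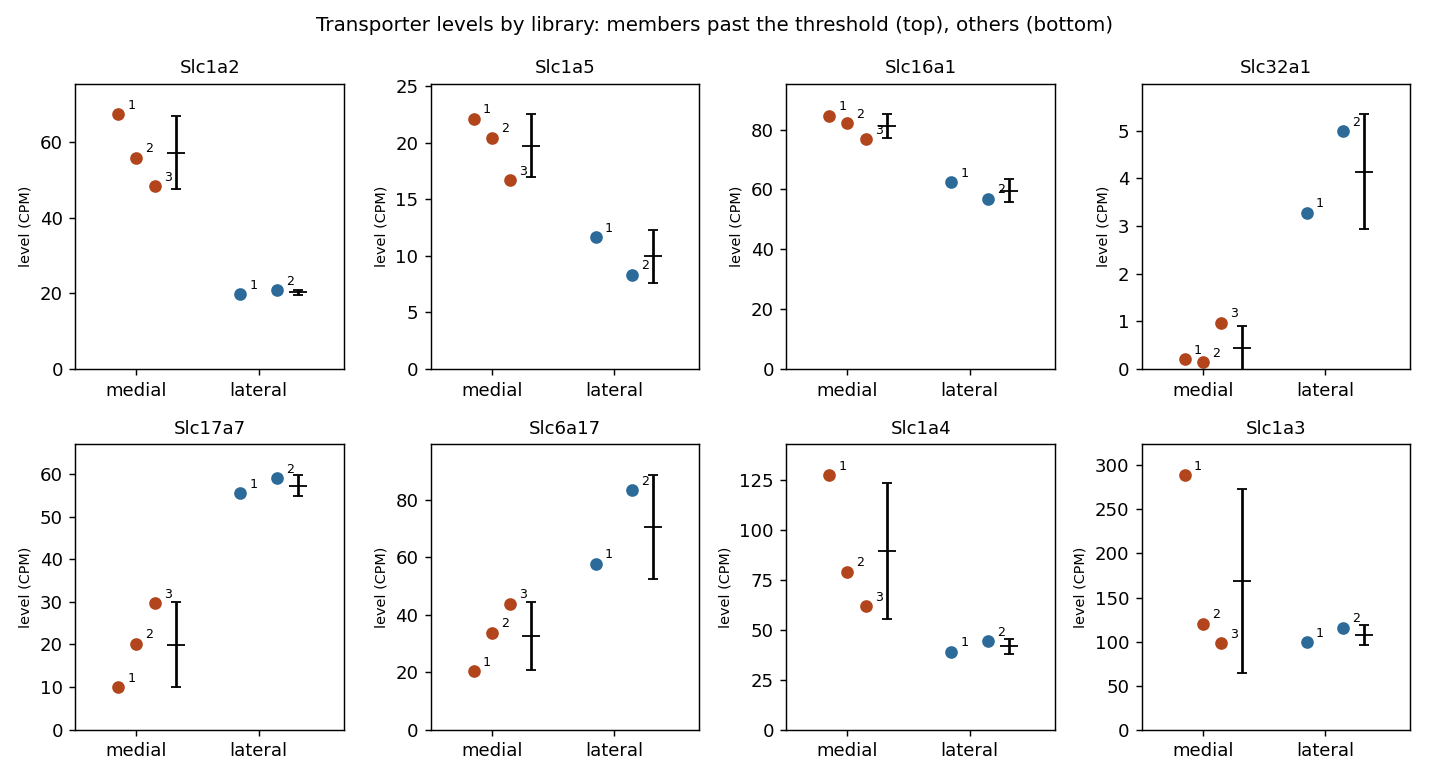
Level in CPM on the vertical axis for each library of medial (3 points) and lateral cortex (2 points), with replicate numbers beside the points and mean ± SD as the black bar, for the 4 members that passed (top row) and 4 others (bottom row). In the top row the regions do not overlap, while for Slc1a3 medial library 1 (289 CPM) lies far above all other points; the lower error bar of Slc32a1 is cut at 0.

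The start sites of the members that passed are shown for reference, since these are the genes whose transcript level differed. RefSeq promoter entries (build GRCm38.p6, not the build mm9 of the counts) were found for 61 of the 86 members and for 3 of the 4 that passed, and Slc1a5 had none. The 250 bases before each annotated start are printed 5′ to 3′, with capitals marking any match to the motifs TGATGCAA (C/EBP-ATF, amino acid response), CACGTG (Myc-type E-box), TAATTA (homeodomain core), CTTTGAT (Tcf/Lef) or GGGCGG (GC box), searched on both strands.
Slc1a2 (chr2:102706188-102706437, plus strand): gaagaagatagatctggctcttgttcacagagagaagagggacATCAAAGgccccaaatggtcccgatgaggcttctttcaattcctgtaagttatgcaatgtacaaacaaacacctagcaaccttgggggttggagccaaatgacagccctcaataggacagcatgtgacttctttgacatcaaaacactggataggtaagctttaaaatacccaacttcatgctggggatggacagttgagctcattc
Slc16a1 (chr3:104638414-104638663, plus strand): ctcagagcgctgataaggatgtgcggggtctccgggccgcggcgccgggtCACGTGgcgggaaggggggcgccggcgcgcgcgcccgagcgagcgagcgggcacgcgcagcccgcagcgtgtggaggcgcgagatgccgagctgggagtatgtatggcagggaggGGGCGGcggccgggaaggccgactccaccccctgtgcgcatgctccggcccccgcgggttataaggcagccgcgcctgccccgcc
Slc32a1 (chr2:158610508-158610757, plus strand): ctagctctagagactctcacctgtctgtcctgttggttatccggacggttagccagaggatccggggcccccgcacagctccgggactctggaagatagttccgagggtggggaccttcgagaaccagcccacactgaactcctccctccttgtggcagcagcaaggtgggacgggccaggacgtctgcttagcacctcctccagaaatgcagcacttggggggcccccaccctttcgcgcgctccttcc

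The Slc1a2 window held the Tcf/Lef motif on the opposite strand, read here as ATCAAAG, 207 bases before the start, a motif present in 3.21% of 32851 promoter windows of the same length. The Slc16a1 window was rich in G and C (76.4%, against a median of 52.4% over all windows) and held CACGTG, found in 6.02% of windows, and GGGCGG, found in 32.7%. The Slc32a1 window held none of the 5 motifs. TAATTA occurred in 4.84% and TGATGCAA in 0.791% of all windows. No motifs overlapped in these windows. A match is a description of the letters and does not show binding.

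Among the 11 tested genes of the Slc16 family 1, Slc16a1, was higher in medial cortex and 0 were lower. Slc16a1 encodes MCT1, which carries lactate, pyruvate and ketone bodies. It had 84.6, 82.1 and 76.8 CPM in the medial and 62.3 and 56.9 CPM in the lateral libraries. The difference was small but the libraries of each region were close together, giving a log2 fold change of 0.44 (SE 0.09, edgeR adjusted p = 0.0383), or 1.36-fold. As with Slc1a5, the call was kept without medial library 1 and lost in each of the other 4 fits that left out a library.

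Slc16a3, the lactate exporter MCT4, had 4.69 to 7.01 and 6.65 to 8.10 CPM (log2 fold change −0.35, 95% interval −0.87 to 0.18). Slc16a7, the neuronal pyruvate and lactate carrier MCT2, had 2.74 to 3.29 and 3.71 to 5.66 CPM (−0.59, 95% interval −1.19 to 0.01). The remaining tested Slc16 genes had log2 fold changes between −1.23 (Slc16a4, with 85 reads in all) and 0.77 (Slc16a9). Slc16a5, Slc16a8 and Slc16a11 had 7, 10 and 17 reads and were not tested.

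Several of these carriers need a partner protein at the membrane. Of 4 partner genes 1, Emb, was higher in medial cortex and 0 were lower. Embigin, its product, accompanies monocarboxylate carriers. Emb had 15.6, 14.6 and 14.2 CPM in the medial and 9.06 and 7.48 CPM in the lateral libraries (log2 fold change 0.83, SE 0.14, edgeR adjusted p = 0.0327). Bsg, which encodes basigin, the main partner of MCT1, had 131 to 151 CPM in the medial and 131 to 144 CPM in the lateral libraries (log2 fold change 0.06, SE 0.10). Slc3a2, the heavy chain shared by several Slc7 carriers, had a log2 fold change of −0.12 (SE 0.11) and Slc3a1, the heavy chain of kidney and gut, one of −0.89 (SE 0.28, edgeR adjusted p = 0.0924).

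In the Slc2 family of sugar carriers 0 of 10 tested genes passed in edgeR, with 4 at an unadjusted p under 0.05, while DESeq2 called Slc2a12 higher and Slc2a1 and Slc2a8 lower. Slc2a1 encodes GLUT1, the glucose carrier of vessel walls and of most dividing cells. It had 44.9, 50.4 and 51.5 CPM in the medial and 61.6 and 63.9 CPM in the lateral libraries. The groups did not overlap, but the log2 fold change of −0.36 (SE 0.09, edgeR adjusted p = 0.0576) did not pass, whereas it did in DESeq2 (adjusted p = 0.0139). Slc2a3, the neuronal glucose carrier GLUT3, had 20.2 to 21.3 and 21.9 to 22.9 CPM (log2 fold change −0.12, 95% interval −0.35 to 0.12).

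The 8 endothelial markers had summed levels of 86.0 to 101 CPM in the medial and 114 to 128 CPM in the lateral libraries. Of these genes 1, Cdh5, was lower in medial cortex and 0 were higher. Slc2a1 relative to that sum was 0.445, 0.586 and 0.586 in the medial and 0.541 and 0.498 in the lateral libraries, so the ratios overlapped (exact two-sided permutation p = 1, n = 3 and 2). Red blood cells also carry GLUT1 during development, and of 6 erythroid markers 1, Hbb-y, was lower in medial cortex and 0 were higher, with summed levels of 261 to 347 CPM against 376 to 436 CPM. Their part in the values of Slc2a1 was not tested.

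Slc2a12, a glucose carrier also called GLUT12, stood at 4.96 CPM in medial library 1, with 0.380 to 1.03 CPM elsewhere. Its log2 fold change was 2.48 (SE 0.94, edgeR adjusted p = 0.133) with all libraries and 1.21 (SE 0.32, edgeR adjusted p = 0.0624) without that library. Slc2a8, an intracellular sugar carrier, had 6.11 to 7.69 CPM in the medial and 9.73 to 11.95 CPM in the lateral libraries (log2 fold change −0.62, SE 0.17, edgeR adjusted p = 0.0683). The other tested Slc2 genes lay between −0.51 and 0.91, and Slc2a2 and Slc2a7 had 7 and 6 reads. Of 6 genes for lactate and glucose use outside the carriers 1, Ldha, which makes lactate, was higher in medial cortex (log2 fold change 0.61, SE 0.10, edgeR adjusted p = 0.0323) and 0 were lower, and Ldhb, which favours its use, had a log2 fold change of −0.59 (SE 0.24, edgeR adjusted p = 0.159).

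Slc32a1 encodes VGAT, the carrier that fills vesicles with GABA or glycine, and it had the largest fold among the tested members. It had 0.208, 0.140 and 0.974 CPM in the medial libraries (6, 4 and 35 reads) and 3.28 and 4.996 CPM in the lateral ones (216 and 269 reads). Medial library 3 was above the other medial libraries and still below both lateral ones. The log2 fold change was −3.11 (SE 0.57, edgeR adjusted p = 0.0356), or 8.63-fold higher in lateral cortex. Without medial library 3 it was −4.54 (edgeR adjusted p = 0.0342), and the call was lost without medial library 2 (0.120), lateral library 1 (0.0758) or lateral library 2 (0.245).

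Of 10 genes of glutamate and GABA metabolism 3 were lower in medial cortex and 1 was higher. Gad1 and Gad2, which make GABA from glutamate, were lower in medial cortex (log2 fold changes −3.44 and −3.41), as was Abat, which breaks GABA down (−0.74, SE 0.16, edgeR adjusted p = 0.0445). The ratio of Slc32a1 to the sum of Gad1 and Gad2 was 0.143, 0.222 and 0.263 in the medial and 0.184 and 0.194 in the lateral libraries, which overlapped (exact two-sided permutation p = 0.8, n = 3 and 2). Reads in medial libraries 1 to 3 numbered 6, 4 and 35 for Slc32a1, 21, 8 and 60 for Gad1 and 21, 10 and 73 for Gad2. The medial ratios thus carry a large counting error, and their overlap with the lateral ones decides little. Of the 8 GABAergic neuron markers 5 were lower in medial cortex, and 0 higher, with summed levels of 55.2 to 81.2 CPM against 123 to 140 CPM.

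Carriers of the Slc6 family take GABA back up across the plasma membrane. Slc6a11, the glial carrier GAT3, did not pass, with 2.29 CPM in medial library 1, 0.455 and 0.695 CPM in the other medial and 0.943 and 1.56 CPM in the lateral libraries (log2 fold change −0.14, 95% interval −1.69 to 1.42). Its direction turned with the libraries used, from −1.07 (SE 0.41, edgeR adjusted p = 0.143) without medial library 1 to 0.25 without lateral library 2. Slc6a12 and Slc6a13, carriers of betaine and GABA, had 18 and 26 reads and were not tested.

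**Figure D3:**
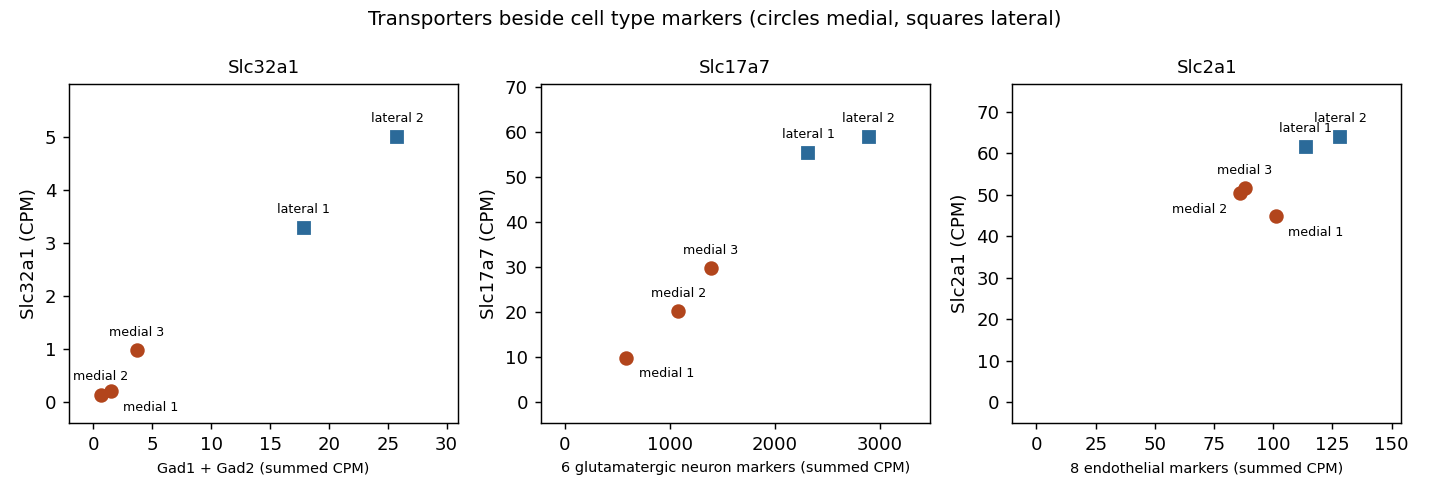
Level of Slc32a1, Slc17a7 and Slc2a1 in CPM (vertical axes) against the summed CPM of Gad1 and Gad2, of 6 glutamatergic neuron markers and of 8 endothelial markers (horizontal axes), with 1 point per library, circles for medial and squares for lateral cortex. The lateral libraries are highest on both axes in each panel, and the medial libraries, 9.92 to 29.7 CPM for Slc17a7, lie below and to the left.

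Of the vesicular glutamate carriers 0 of 3 passed in edgeR, with 2 at an unadjusted p under 0.05. Slc17a7 encodes VGLUT1, the main vesicular glutamate carrier of the mature cortex. It had 9.92, 20.2 and 29.7 CPM in the medial and 55.5 and 59.0 CPM in the lateral libraries. All medial values were below the lateral ones but spread widely, and the log2 fold change of −1.52 (SE 0.40) had an edgeR adjusted p of 0.0612. It passed in DESeq2 (adjusted p = 0.00182), in limma-voom (0.0473) and in edgeR without medial library 1 (log2 fold change −1.19, adjusted p = 0.0232).

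Slc17a6 encodes VGLUT2, which predominates in the thalamus and in many early-born neurons. It had 71.4, 92.8 and 92.1 CPM in the medial and 95.1 and 79.9 CPM in the lateral libraries, which overlapped. The log2 fold change was −0.03 with a 95% interval of −0.39 to 0.32, and 0.08 (SE 0.10) without medial library 1. The ratio of Slc17a6 to Slc17a7 was 7.20, 4.59 and 3.10 in the medial and 1.71 and 1.35 in the lateral libraries, without overlap (exact two-sided permutation p = 0.2, the smallest this form of the test allows, n = 3 and 2). Slc17a8, or VGLUT3, had 13, 23 and 16 medial and 12 and 14 lateral reads, and at 0.445 to 0.804 against 0.182 to 0.260 CPM it did not pass (log2 fold change 1.35, SE 0.42, edgeR adjusted p = 0.0904).

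Markers of neurons differed between the regions beside these genes. The 6 markers of glutamatergic cortical neurons summed to 586, 1081 and 1391 CPM in medial libraries 1 to 3 and to 2318 and 2895 CPM in the lateral libraries, with 3 of 6 lower in medial cortex (among them Tbr1 and Neurod2) and 0 higher. Slc17a7 relative to that sum was 0.0169, 0.0187 and 0.0214 in the medial and 0.0240 and 0.0204 in the lateral libraries, which overlapped (exact two-sided permutation p = 0.4, n = 3 and 2). All 8 markers of Cajal-Retzius cells, early neurons at the cortical surface, were higher in medial cortex, with sums of 579 to 676 CPM against 176 to 221 CPM. Of 5 genes used to check for thalamic tissue 4 were tested and 2 were higher in medial cortex, Lhx9 and Prox1, and 0 lower. The 5 genes summed to 109 to 159 CPM against 39.0 to 48.2 CPM. Of that sum Lhx9 made up 50.9 to 70.7 CPM in the medial and 3.68 to 10.8 CPM in the lateral libraries. Prox1 made up 24.5 to 83.4 CPM in the medial and 1.65 to 3.10 CPM in the lateral libraries. Tcf7l2 overlapped between the regions and did not pass (log2 fold change 0.24, SE 0.23). Foxp2 did not pass either (−0.43, SE 0.43), with all medial libraries below the lateral ones. Gbx2, a defining gene of the thalamus, had at most 0.0694 CPM. Any part of such cells in the vesicular carrier values was not tested beyond the ratio given. Sv2a, a synaptic vesicle protein gene, was the 1 of 4 tested vesicle and choline carrier genes that passed, lower in medial cortex (log2 fold change −1.12, SE 0.25, edgeR adjusted p = 0.0482).

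Of the other Slc17 genes, Slc17a5 encodes sialin, the lysosomal sialic acid exporter, and had 13.7 to 15.7 CPM in all libraries (log2 fold change −0.08, 95% interval −0.36 to 0.20). Slc17a9, the vesicular ATP carrier, had 65 reads in all and a log2 fold change of 0.04 (SE 0.33). Slc17a1, Slc17a2, Slc17a3 and Slc17a4, phosphate and urate carriers of kidney and gut, had 9, 14, 16 and 8 reads and were not tested.

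The monoamine carriers were near the limit of detection. Slc6a4, the serotonin carrier, had 18, 2 and 12 reads in the medial and 5 and 7 reads in the lateral libraries (log2 fold change 1.74, SE 0.80, edgeR adjusted p = 0.194). It fell under the low-count filter without medial library 1 or medial library 3 and with all libraries thinned to the smallest. It also fell under the filter at 1 CPM in 2 libraries, and was tested in 12 alternatives. A floor of 3 reads corresponds to 0.0456 to 0.105 CPM in these libraries. Slc6a2 and Slc6a3, the noradrenaline and dopamine carriers, had 11 and 15 reads in all. Markers of monoaminergic and cholinergic neurons (Th, Dbh, Tph2 and Chat) together stayed between 0.122 and 0.804 CPM. Of the glycine and proline carriers, Slc6a9 (GlyT1, the glial glycine carrier) had 2.95 to 5.37 and 2.92 to 3.25 CPM, which overlapped (log2 fold change 0.49, SE 0.28, and 0.70, SE 0.18, edgeR adjusted p = 0.0617 without medial library 1). Slc6a5 (GlyT2, of glycinergic neurons) and Slc6a7 (proline) had 12 and 21 reads.

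Of the 4 other tested Slc6 genes 0 passed in edgeR, with 2 at an unadjusted p under 0.05. Slc6a8, the creatine carrier, had 45.1, 46.8 and 46.1 CPM in the medial and 48.4 and 42.9 CPM in the lateral libraries. Its log2 fold change was 0.01 with a 95% interval of −0.20 to 0.23. Slc6a6, the taurine carrier, had 68.3 to 73.3 and 79.1 to 95.9 CPM (log2 fold change −0.29, SE 0.10, edgeR adjusted p = 0.114). Slc6a17, a vesicular neutral amino acid carrier of neurons, had 20.4, 33.8 and 43.9 CPM in the medial and 57.8 and 83.4 CPM in the lateral libraries, without overlap (log2 fold change −1.11, SE 0.32, edgeR adjusted p = 0.0754, and −0.86, adjusted p = 0.0513, without medial library 1), and it passed in DESeq2 (adjusted p = 0.00710). Slc6a15, a neuronal neutral amino acid carrier, had a log2 fold change of −0.27 (SE 0.21), and Slc6a14, Slc6a18 and Slc6a19 had 4, 10 and 8 reads.

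In the Slc7 family 0 of 11 tested genes passed in edgeR, with 3 at an unadjusted p under 0.05 and with Slc7a6 higher and Slc7a4 lower in DESeq2, and the median log2 fold change was 0.07. Slc7a1, the main cationic amino acid carrier, had 43.4 to 49.2 CPM in the medial and 41.8 to 49.3 CPM in the lateral libraries (log2 fold change 0.01, 95% interval −0.26 to 0.27). Slc7a5, or LAT1, the light chain that brings in large neutral amino acids with the Slc3a2 heavy chain, had 98.6, 69.3 and 65.3 CPM in the medial and 82.9 and 82.3 CPM in the lateral libraries (log2 fold change −0.09, 95% interval −0.54 to 0.36). Both lateral values lay between those of medial library 1 and the other medial libraries, and Slc7a5 had a log2 fold change of −0.29 (SE 0.08, edgeR adjusted p = 0.0582) when that library was left out.

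Slc7a6, a light chain that exchanges cationic for neutral amino acids, had 78.6, 78.5 and 78.9 CPM in the medial and 67.5 and 65.8 CPM in the lateral libraries. The libraries of each region lay close together, yet with a log2 fold change of 0.24 (SE 0.07) it did not pass in edgeR (adjusted p = 0.0741), while it did in DESeq2 (0.0220). Slc7a4, a relative of the cationic carriers, had 5.20 to 6.20 and 8.17 to 9.97 CPM (log2 fold change −0.62, SE 0.17, edgeR adjusted p = 0.0660; DESeq2 adjusted p = 0.0167). Slc7a8 (LAT2) and Slc7a11 (the cystine and glutamate exchanger xCT) had log2 fold changes of −0.09 (SE 0.33) and 0.19 (SE 0.62), and Slc7a11 reads numbered 46, 15 and 23 in the medial and 29 and 64 in the lateral libraries. The direction of Slc7a11 turned with the libraries used, with log2 fold changes of −0.43 without medial library 1, −0.40 without lateral library 1 and 1.03 without lateral library 2. The other tested Slc7 genes lay between −0.87 (Slc7a14) and 0.70 (Slc7a3), and Slc7a9, Slc7a12, Slc7a13 and Slc7a15 had 16, 1, 4 and 4 reads.

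Several carriers of the Slc1, Slc7 and Slc38 families are known targets of Atf4, the transcription factor of the amino acid response. Of 11 tested genes of that response outside the carriers 2 were higher in medial cortex and 0 lower. They were Psat1 and Phgdh, enzymes of serine synthesis, with log2 fold changes of 0.93 (SE 0.09, edgeR adjusted p = 0.0253) and 0.91 (SE 0.11, edgeR adjusted p = 0.0295). Psat1 had 371 to 402 CPM in the medial and 187 to 213 CPM in the lateral libraries. Atf4 itself had 113 to 127 and 110 to 117 CPM (log2 fold change 0.08, SE 0.08), and Aldh18a1 (proline synthesis) and Shmt2 (mitochondrial serine use) had log2 fold changes of 0.28 (SE 0.09) and 0.22 (SE 0.10).

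In the Slc38 family, which carries glutamine and other small neutral amino acids, 0 of 9 tested genes passed in edgeR, with 2 at an unadjusted p under 0.05. Slc38a1 (SNAT1, neuronal glutamine uptake) had 265, 288 and 295 CPM in the medial and 265 and 272 CPM in the lateral libraries (log2 fold change 0.08, 95% interval −0.12 to 0.27). Slc38a2 (SNAT2, induced by amino acid shortage) had 294, 286 and 283 CPM in the medial and 351 and 338 CPM in the lateral libraries. The regions did not overlap for Slc38a2, and the difference was small (log2 fold change −0.26, SE 0.07, edgeR adjusted p = 0.0667; DESeq2 adjusted p = 0.00624). The ratio of Slc38a2 to Slc38a1 was 1.11, 0.992 and 0.958 in the medial and 1.33 and 1.24 in the lateral libraries (exact two-sided permutation p = 0.2, the smallest this form of the test allows, n = 3 and 2).

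Slc38a3, the glial glutamine exporter SNAT3, had 8.22 to 12.3 and 11.1 to 13.9 CPM (log2 fold change −0.23, 95% interval −0.74 to 0.28, and −0.08 without medial library 1). Slc38a5, a glutamine and glycine carrier also found in vessels and blood cells, had 3.09 to 4.48 and 5.19 to 6.24 CPM (log2 fold change −0.64, SE 0.22, edgeR adjusted p = 0.107). The 5 other tested Slc38 genes lay between −0.26 and 0.79, and Slc38a8 and Slc38a11 had 11 and 8 reads. Among genes of glutamate and GABA metabolism, Gls2, a glutaminase, was the 1 of 10 that was higher in medial cortex (log2 fold change 1.65, SE 0.30, edgeR adjusted p = 0.0356), at 1.72 to 1.94 against 0.409 to 0.730 CPM. Glul, which makes glutamine, had a log2 fold change of −0.15 (SE 0.14).

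The 7 ratios given above were chosen after the levels were seen, and adjusted over them by the Benjamini-Hochberg method their permutation p-values ranged from 0.35 to 1.

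Medial library 1 stood apart for a few transporters. Of the 61 tested members 3, Slc1a3, Slc2a12 and Slc16a9, were at least 2-fold higher there than in any other library, or 4.92% against 2.29% of all tested genes, and 0 were in medial libraries 2 and 3 or the lateral libraries. Slc16a9, a carnitine carrier, had 32 reads there and 3 to 21 reads elsewhere, and its log2 fold change was 0.77 with that library and −0.57 without it. Besides the connective tissue markers, 6 microglia markers summed to 53.2 CPM in medial library 1 and to between 20.3 and 29.6 CPM elsewhere, and the part of either in these values was not tested. Without medial library 1 the members called were 5 higher and 3 lower: Slc1a4, Slc16a14 (log2 fold change 0.65, SE 0.13, edgeR adjusted p = 0.0342) and Slc17a7 were among those added to the 4 genes that passed with all libraries.

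**Figure D4:**
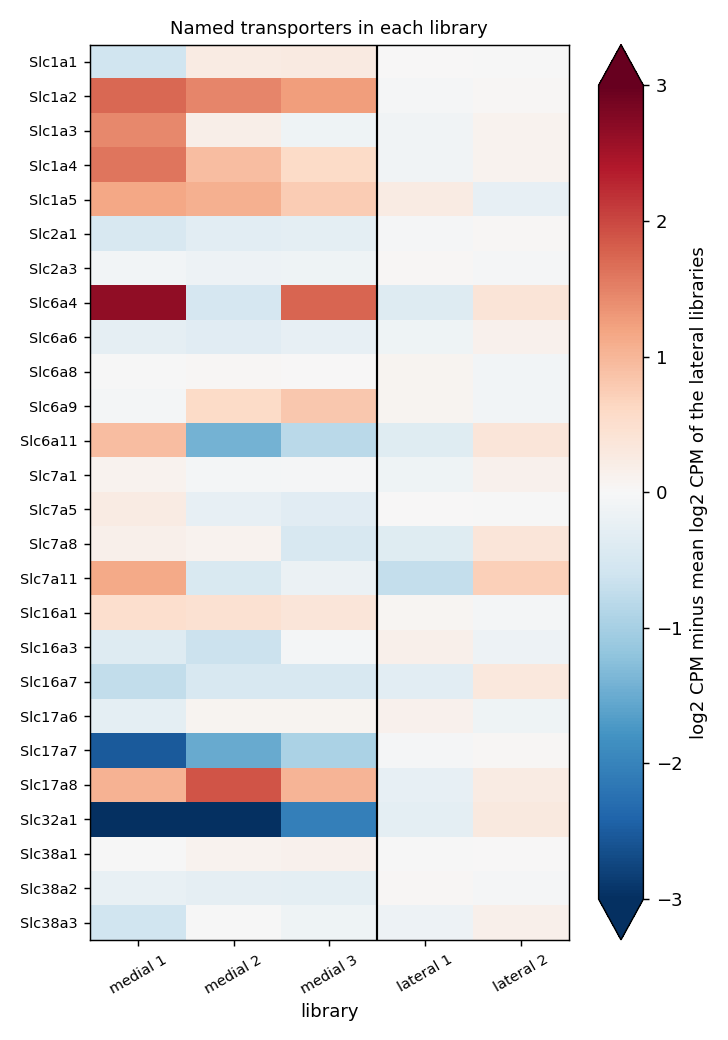
Colour gives log2 CPM minus the mean log2 CPM of the lateral libraries for 26 named and tested transporters (rows) in each library (columns), with red above and blue below that mean and values past 3 drawn at the end of the scale. Slc1a2 and Slc1a5 are red and Slc32a1 and Slc17a7 blue in all 3 medial columns, while Slc1a3 is red in medial library 1 and pale in medial libraries 2 and 3.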

How the data were processed

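RNA sequencing of 3 medial and 2 lateral cortex libraries from wild-type E14.5 mice was analysed. The deposited values are counts of reads per gene symbol, whole numbers that the authors did not normalise. The submitters' processing notes list BWA, STAR and HTSeq and the mm9 build, with no versions or roles. Reads assigned to no gene (23.1% to 28.7% of each file) entered neither library sizes nor tests. No column of another sample was present.

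Counts were tested with edgeR 4.0.16 in R 4.3.3 (TMM, glmQLFit and glmQLFTest in the form introduced with edgeR 4, group as the only term, 3 residual degrees of freedom) on the 16229 genes kept by filterByExpr (count of 10, total of 15). Benjamini-Hochberg adjustment ran over all of these. SEs were derived from log2 fold change and F, and 95% intervals use the moderated degrees of freedom. Floors cover counting error only.

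The members, gene lists and tests were chosen with earlier results of these data known. Named are all members that passed, members with a well-known role, and genes of the lists that passed or were among the 3 with the highest mean that did not; others were named after their values were seen. Alternatives covered scaling, filters, DESeq2 1.42.0, limma-voom (limma 3.58.1), the older edgeR form, thinning, left-out libraries and blocks. The 250-base promoter windows come from RefSeq. Results for a few genes are not reported here.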

Additional observations from a re-analysis of the deposited data

How the results depend on the processing

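The 3 members called higher and the 1 called lower in medial cortex kept those counts with median-of-ratios, upper-quartile or library-size scaling, with the older edgeR form, with a filter at 1 CPM in 2 libraries and with all libraries thinned to the smallest. DESeq2 called 6 higher and 8 lower (23.0% of the members, against 21.7% of all genes), and limma-voom 3 and 2 (8.20%, against 9.95%). No low-count filter left 1 and 1 (2.33% of 86 members, against 4.10%). There Slc1a5 and Slc16a1 were lost (edgeR adjusted p = 0.0528 and 0.0782). Leaving out 1 library gave between 0 and 5 members higher and between 0 and 3 lower. Counts were 0 in edgeR without medial library 2, lateral library 1 or lateral library 2, with 14, 14 and 11 members at an unadjusted p under 0.05, and over all genes 0, 18 and 0 calls were made. Without medial library 3, 1 was higher (Slc1a2) and 1 lower (Slc32a1). The 4 called members kept their direction in all 16 alternatives.

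A replicate block by label number called 1 higher (Slc1a2) and 3 lower (Slc6a17, Slc17a7, Slc32a1). That was 6.56% of the tested members, against 6.63% of all genes. A block by the tag shared in the deposited names called 11 higher and 14 lower (41.0% of the members), and 5364 genes in all (33.1%). Beside the 4 called without a block, it called, among others, Slc1a4, Slc2a12, Slc6a9, Slc7a6, Slc7a10, Slc16a14 and Slc17a8 higher and Slc2a1, Slc2a8, Slc6a6, Slc6a11, Slc6a17, Slc7a4, Slc7a5, Slc7a14, Slc16a4, Slc17a7, Slc38a2 and Slc38a5 lower. The labels do not say what either number marks, and deviations from the region means correlated at 0.0267 and −0.385 for libraries of the same label number and at 0.385 and 0.376 for the same tag. With 2 lateral libraries, whose deviations mirror each other, these values are not independent. No lateral library shares the tag of medial library 1 or the label number of medial library 3. Each block therefore takes that library out of the region comparison. Slc6a17 had a log2 fold change of −0.85 with the tag block and −0.86 without medial library 1. Slc32a1 had −4.53 with the label-number block and −4.54 without medial library 3. Depth limits the 25 untested members and those under 100 reads.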
